A study of Mus musculus with 23 samples.

Results

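The nuclear-encoded subunits of the mitochondrial respiratory chain and ATP synthase were followed in the head of the mouse pancreas before caerulein injury and 7 and 14 days after it. The members were chosen by gene symbol: those that start with Nduf followed by a, b, c, s or v, Sdha to Sdhd, Cyc1, those that start with Uqcr or Atp5, and Cox symbols numbered from 4 to 8, without pseudogene symbols and without the complex I assembly factors named Ndufaf. This gave 85 of 18512 gene symbols: 38 for complex I, 4 for complex II, 9 for complex III, 17 for complex IV and 17 for complex V. The rule reads symbols only. Of the 85, 78 had enough counts to be tested, 37 in complex I, 4 in complex II, 9 in complex III, 11 in complex IV and 17 in complex V.

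The mice were C57BL/6 of both sexes, 6 to 8 weeks old. The baseline group (8 mice, 4 female and 4 male) was not injured. The other mice received caerulein, a cholecystokinin analogue that overstimulates the acinar cells and causes pancreatitis, at 50 µg/kg in 8 hourly intraperitoneal injections on each of 2 days. They were examined 7 days after injury (8 mice, 4 female and 4 male) or 14 days after it (7 mice, 3 female and 4 male). Total RNA of unsorted tissue was depleted of ribosomal RNA and sequenced, and the values were counts of fragments per gene. In such bulk tissue, fewer cells of a type and less RNA per cell cannot be told apart.

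The respiratory chain passes electrons from NADH (complex I) and succinate (complex II) through coenzyme Q to complex III, by cytochrome c to complex IV and on to oxygen, while complexes I, III and IV pump protons across the inner mitochondrial membrane. Complex V, the ATP synthase, makes ATP from the returning protons. Most subunits are encoded in the nucleus and imported. Of the 13 encoded by mitochondrial DNA, 0 were among the gene symbols of the counts, so these were not analysed here. Acinar cells, which make up most of the pancreas, spend much of their ATP on making and secreting digestive enzymes.

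The regulatory sequence of these genes is known for sites of NRF1, of ETS factors such as GABPA and of YY1, which act on many mitochondrial genes. A RefSeq promoter window (250 bases before to 50 after a transcript start, GRCm38.p6) was found for 67 of the 85 members. In this paragraph, tested genes are those tested in any comparison, the interaction of sex with time included. The NRF1 letters GCGCANGCGC were present on either strand in 17 of the 67 (25.4%), beside 11.3% of the 9715 tested genes with such a window and 5.19% of all 27025 symbols. The ETS letters CCGGAAG were present in 16 (23.9%, beside 19.5% of the tested genes and 9.93% of all symbols), and the YY1 letters AAGATGGC in 9 (13.4%, beside 5.23% and 3.19%). These shares are descriptions of letters, not of binding, and an ETS match can share its last letters, AAG, with a YY1 match. At least 1 of the 3 motifs was present in 36 of the 67 members, and at least 2 in 6. Where a gene had more than 1 window, a match in any of them counted. The Sp letters GGGCGG were also searched, and were present in 27 of the 67 (40.3%), beside 68.2% of the tested genes. The TATA letters TATAAA were present in 7 (10.4%), beside 9.13% of the tested genes. The windows of 4 genes that passed the test at day 7 are shown 5′ to 3′ on the gene's strand, because these genes carry the largest decrease, the next in order of p, a small decrease with 2 of the motifs, and the increase described below. Capitals mark an NRF1, ETS or YY1 match.
Cox7a2l promoter, chr17:83514284-83514583, minus strand: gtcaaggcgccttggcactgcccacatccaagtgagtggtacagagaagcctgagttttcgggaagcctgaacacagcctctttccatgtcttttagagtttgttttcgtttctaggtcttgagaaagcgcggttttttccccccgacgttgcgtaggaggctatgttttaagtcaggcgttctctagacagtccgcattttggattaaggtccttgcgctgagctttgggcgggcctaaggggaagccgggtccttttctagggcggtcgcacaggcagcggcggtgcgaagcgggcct
Uqcrh promoter, chr4:116075021-116075320, minus strand: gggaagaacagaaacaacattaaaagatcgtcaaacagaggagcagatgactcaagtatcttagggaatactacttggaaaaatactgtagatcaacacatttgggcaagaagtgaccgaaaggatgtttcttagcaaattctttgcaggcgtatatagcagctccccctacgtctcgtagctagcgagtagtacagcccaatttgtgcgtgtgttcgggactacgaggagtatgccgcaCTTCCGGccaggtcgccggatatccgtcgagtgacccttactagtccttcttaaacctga
Ndufs6 promoter, chr13:73328433-73328732, minus strand: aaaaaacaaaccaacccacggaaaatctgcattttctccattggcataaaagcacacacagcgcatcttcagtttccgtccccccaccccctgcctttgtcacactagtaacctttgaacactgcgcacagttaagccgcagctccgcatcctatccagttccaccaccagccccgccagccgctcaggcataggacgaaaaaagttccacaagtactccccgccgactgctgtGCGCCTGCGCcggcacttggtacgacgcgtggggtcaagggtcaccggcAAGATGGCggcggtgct
Cox7b promoter, chrX:106015450-106015749, plus strand: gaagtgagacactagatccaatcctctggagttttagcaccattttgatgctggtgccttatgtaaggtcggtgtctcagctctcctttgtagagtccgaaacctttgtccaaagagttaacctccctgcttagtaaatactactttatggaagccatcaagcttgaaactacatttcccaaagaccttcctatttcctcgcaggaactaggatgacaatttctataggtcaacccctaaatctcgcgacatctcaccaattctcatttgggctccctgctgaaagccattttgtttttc
The Uqcrh window held ETS letters, the Ndufs6 window NRF1 and YY1 letters, and the Cox7a2l and Cox7b windows none of the 3. The Cox7a2l window lies at the start of its principal transcript, inside the annotated span of the gene, because another annotated transcript starts farther upstream; the other windows lie at or close to the outer start of their genes.

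Libraries held 7059890 to 9567446 counts, of which 19466 to 42174 belonged to the 85 genes. These genes took between 0.276% and 0.308% of all counts in baseline mice, between 0.354% and 0.441% in day 7 mice and between 0.332% and 0.378% in day 14 mice, so that every injured mouse lay above every baseline mouse. The share of the 20 most abundant genes of the series moved the other way, with 66.4% to 71.2% before injury, 55.3% to 62.8% a week later (day 7) and 63.9% to 66.2% on day 14. Of the counts outside those 20 genes, the subunits took 0.907% to 1.01% in baseline mice, 0.944% to 1.06% in the day 7 group and 0.964% to 1.05% in the day 14 group, with overlap between all groups. The values below are CPM, that is counts scaled to a fixed library total, after TMM scaling, which estimates library factors from the bulk of the genes (0.767 to 1.41 here). On this scale the 85 genes together had sums of 3047 to 3785 CPM (baseline), 3076 to 3686 CPM (day 7) and 3227 to 3768 CPM (day 14).

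**Figure D1:**
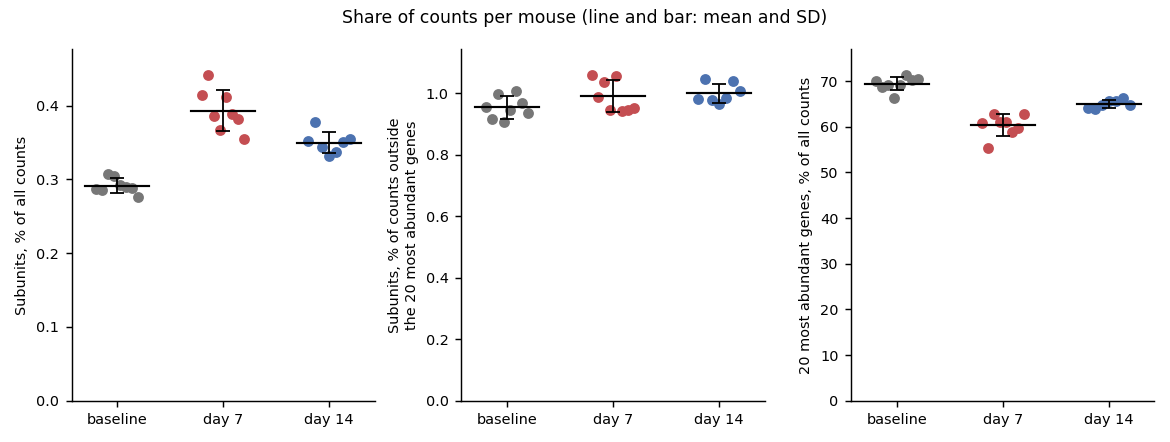
Share of counts per mouse by group (points: mice; line and bar: mean and SD): the 85 subunit genes as a percent of all counts, the same genes as a percent of counts outside the 20 most abundant genes, and those 20 genes as a percent of all counts. The first share was 0.276% to 0.308% at baseline and 0.354% to 0.441% at day 7, whereas the second overlapped between the groups.

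Levels differed more between subunits than between groups. Per kilobase of the principal transcript, the tested subunits had a median of 39.0 CPM at baseline, beside 3.31 for all tested genes. Their transcripts were short, with a median of 732 bases beside 2850 for the tested genes, and 56 of the 85 were under 1000 bases. The highest level of all belonged to Atp5b, the catalytic beta subunit of ATP synthase, with 207.3 ± 15.2 CPM per kilobase (SD, n = 8). In complex I the levels ran from 114.4 ± 13.9 for Ndufb9 down to 4.37 ± 0.381 for Ndufab1, the mitochondrial acyl carrier protein. In complex II they ran from 53.1 ± 4.30 for Sdhb, the iron-sulfur subunit of succinate dehydrogenase, down to 7.79 ± 1.02 for Sdhc, a membrane anchor. The complex III levels lay between 125.1 ± 11.4 for Uqcrh, the hinge protein, and 21.6 ± 1.33 for Cyc1, cytochrome c1. Those of complex IV lay between 127.0 ± 7.67 for Cox4i1, the common form of subunit 4, and 31.7 ± 2.82 for Cox5b. The neighbours at the top of complex III, Uqcrh and Uqcrq (123.9 ± 18.4), differed by less than their spread. Atp5s (1.45 ± 0.448) and Atp5sl (2.26 ± 0.387) were lowest in complex V; both carry an ATP synthase name, but Atp5s encodes a coupling factor and Atp5sl is named by similarity.

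**Figure D2:**
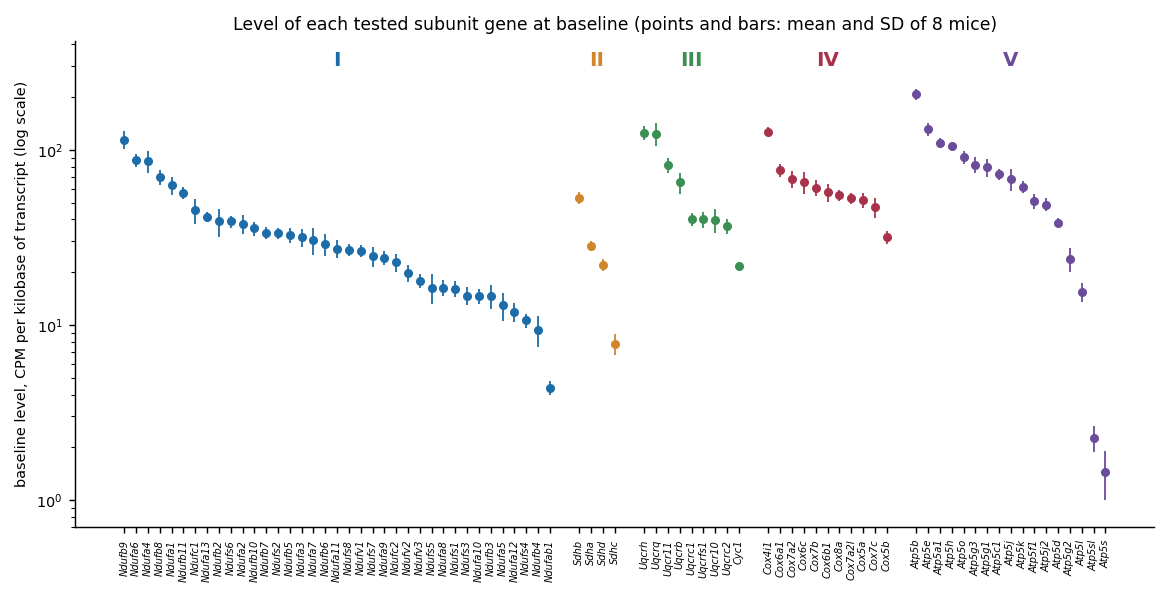
Level of each of the 78 tested subunit genes at baseline, in CPM per kilobase of transcript on a log scale, ordered within complexes I to V (points and bars: mean and SD of 8 mice). Levels ran from 1.45 for Atp5s to 207.3 for Atp5b.

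The c ring of ATP synthase is made from Atp5g1, Atp5g2 and Atp5g3, which encode the same mature protein with different import sequences. Per kilobase, Atp5g3 (81.9 ± 8.66) and Atp5g1 (79.3 ± 9.69) lay together within their spread, and Atp5g2 was listed at 23.8 ± 3.62 (n = 8 each). They made up 44.3%, 42.9% and 12.8% of the summed level. The Atp5g2 value is uncertain, since none of the 75-base windows of its transcript was free of copies in other annotated genes, which counting of unique fragments can lose. For Atp5g1, 40.4% of the windows were unique, beside 100% for Atp5g3. The level of Atp5g1, its likeness to that of Atp5g3 and the shares are therefore uncertain too. All windows were unique for 49 of the 85 members, and fewer than 75% were unique for 13, among them Atp5l (24%), Atp5g1 (40.4%), Atp5h (46.1%) and Cox7c (49.6%).

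The 7 untested members were tissue-specific forms or relatives of subunits. Cox6a2, Cox7a1 and Cox8b are the forms of heart and skeletal muscle (Cox7a1 and Cox8b also of brown fat), Cox4i2 is known from lung, and Cox6b2 and Cox7b2 from testis. Ndufa4l2 is a hypoxia-induced relative of Ndufa4. Cox6b2 had at most 2 counts in a baseline mouse, 3 in a day 7 mouse and 5 in a day 14 mouse. Cox8b had at most 1, 4 and 1 counts in the same groups. Ndufa4l2, the highest of the 7, had 0 to 5 counts before injury, 3 to 7 in the day 7 mice and 1 to 10 in the day 14 mice. These values lie about the floor of 3 counts, which corresponds to 0.224 to 0.524 CPM depending on the library and covers counting error only, so that differences between groups were not detectable at this depth. The skeletal muscle markers in the files summed to at most 1.38 CPM in any mouse and the brown adipocyte markers to at most 1.21 CPM.

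At day 7 against baseline, the subunits did not move as a block. Uqcrh, Ndufb8, Ndufb5, Atp5d, Atp5o, Ndufs6, Ndufv3 and Cox7a2l fell by 0.22 to 0.59 on the log2 scale and Cox7b rose by 0.25, and the median log2 fold change of the 78 was -0.02, beside 0.02 over all 12500 genes tested. With edgeR's quasi-likelihood test, sex as a covariate and Benjamini-Hochberg adjustment over all genes, 9 of the 78 subunits (11.5%) had an adjusted p of at most 0.05, beside 18% of all genes. The 8 lower compare with 9.49% of genes called lower, and the 1 higher with 8.5% called higher. A DEG, which also needs a fold change of at least 1.5, was 1 of 78 subunits, beside 5.1% of all genes. Before adjustment, 19 of the 78 had p under 0.05, beside 3951 of the 12500 genes. The estimates were narrow: the 95% interval of the fold change lay within 1.5-fold in both directions for 76 of the 78 subunits (97.4%), beside 67.6% of all genes. The median half-width of the interval was 0.15 on the log2 scale, beside 0.24 over all genes. The SD of log2 CPM within a group had a median of 0.14 for the subunits and 0.22 for all tested genes, although the subunits also had the higher mean level (median 33.3 CPM, beside 9.21).

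**Figure D3:**
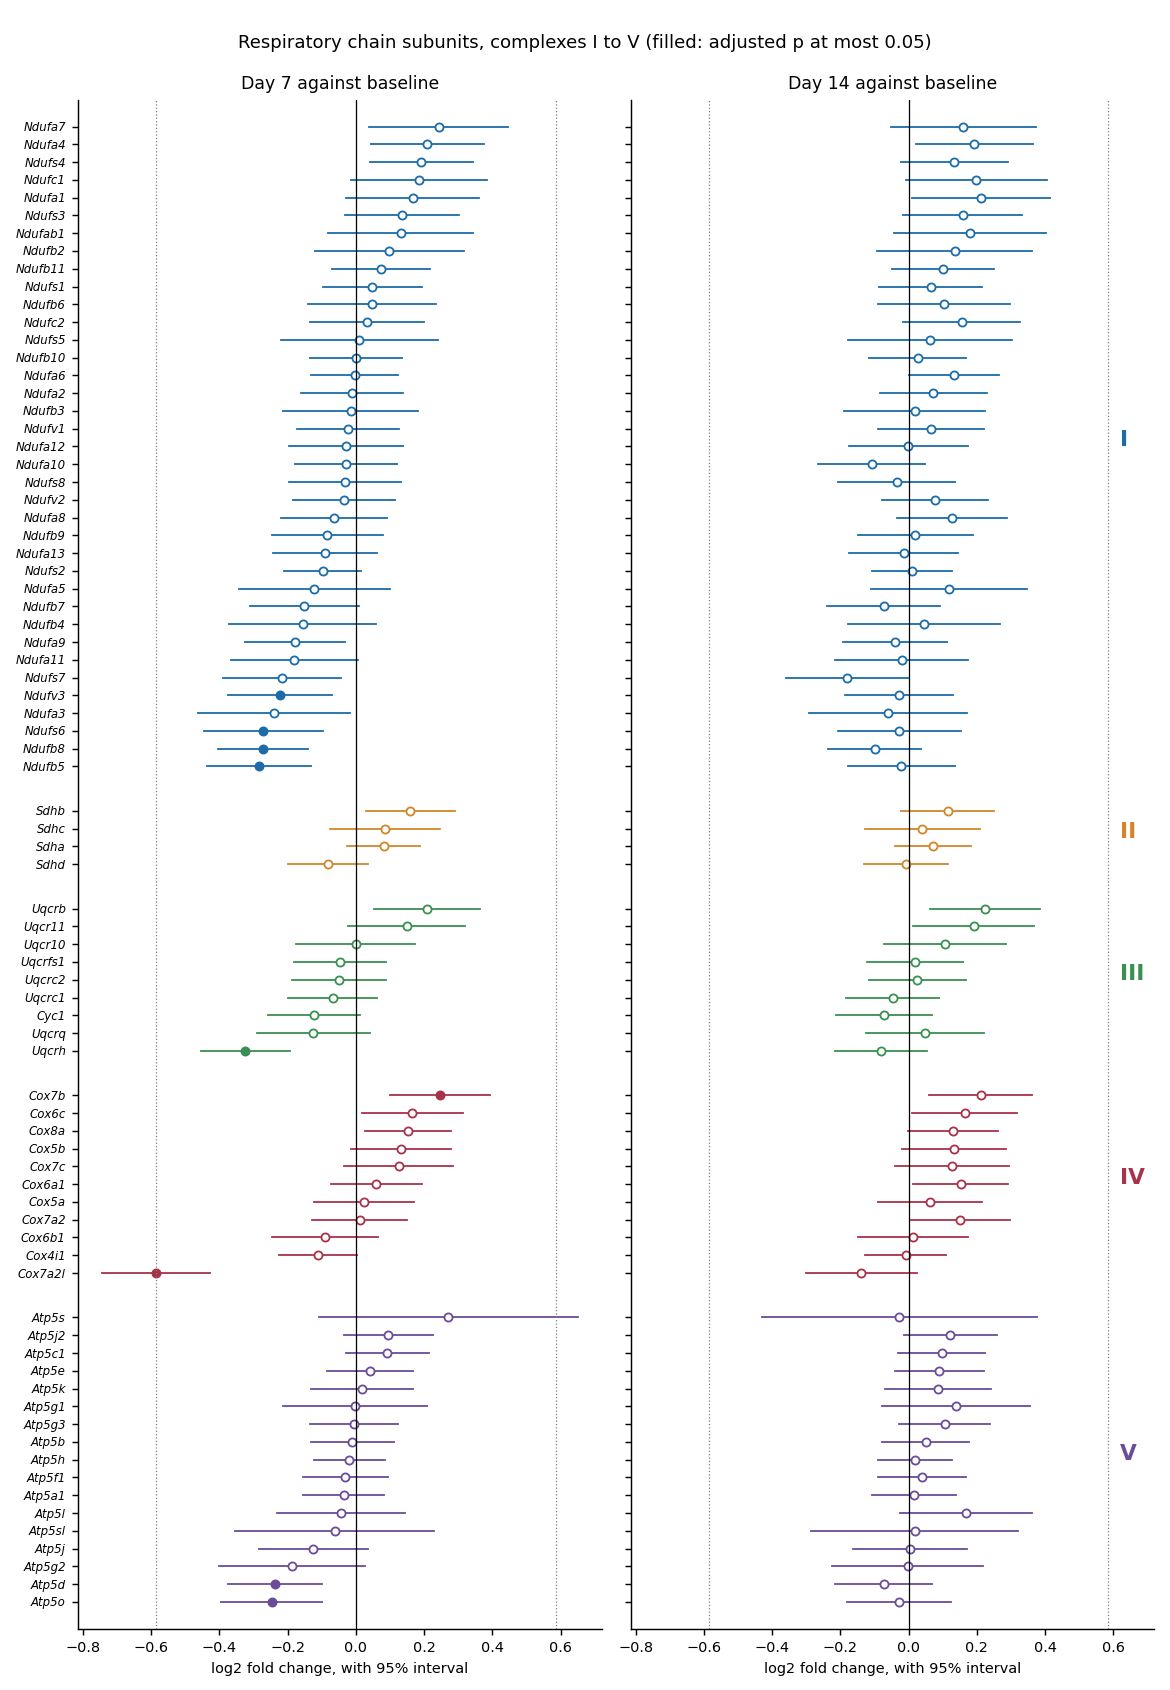
Log2 fold change of each of the 78 tested subunit genes, with its 95% interval, at day 7 and at day 14 against baseline, ordered by complex and by the day 7 value. Filled points have an adjusted p of at most 0.05 (9 at day 7 and 0 at day 14), and dotted lines mark 1.5-fold; Cox7a2l at day 7, at -0.59, is the point farthest from 0.

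The largest change belonged to Cox7a2l (ENSMUSG00000024248.14, chromosome 17, 83501918 to 83517330, minus strand, mm10). It is a relative of the complex IV subunit Cox7a2 that links complexes III and IV into supercomplexes, and is also known as SCAF1; C57BL/6 mice carry a shortened form of the protein. At baseline the lowest, median and highest mice had 49.6, 57.7 and 61.0 CPM. At day 7 they had 29.4, 39.3 and 48.1 CPM, and at day 14 they had 48.2, 50.3 and 56.1 CPM. All 8 mice of day 7 lay below all 8 baseline mice and below all 7 mice of day 14, whereas baseline and day 14 overlapped. Cox7a2l was the only one of the 78 subunits whose day 7 and baseline mice did not overlap, beside 2.7% of all tested genes. It fell by 0.59 on the log2 scale at day 7 (SE 0.08, edgeR adjusted p = 6.83e-06), at the 1.5-fold threshold itself: it stayed past the adjusted p in all 23 fits that left out 1 mouse, and past 1.5-fold in 14 of them. Of the windows of its transcript, 84.7% were unique.

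**Figure D4:**
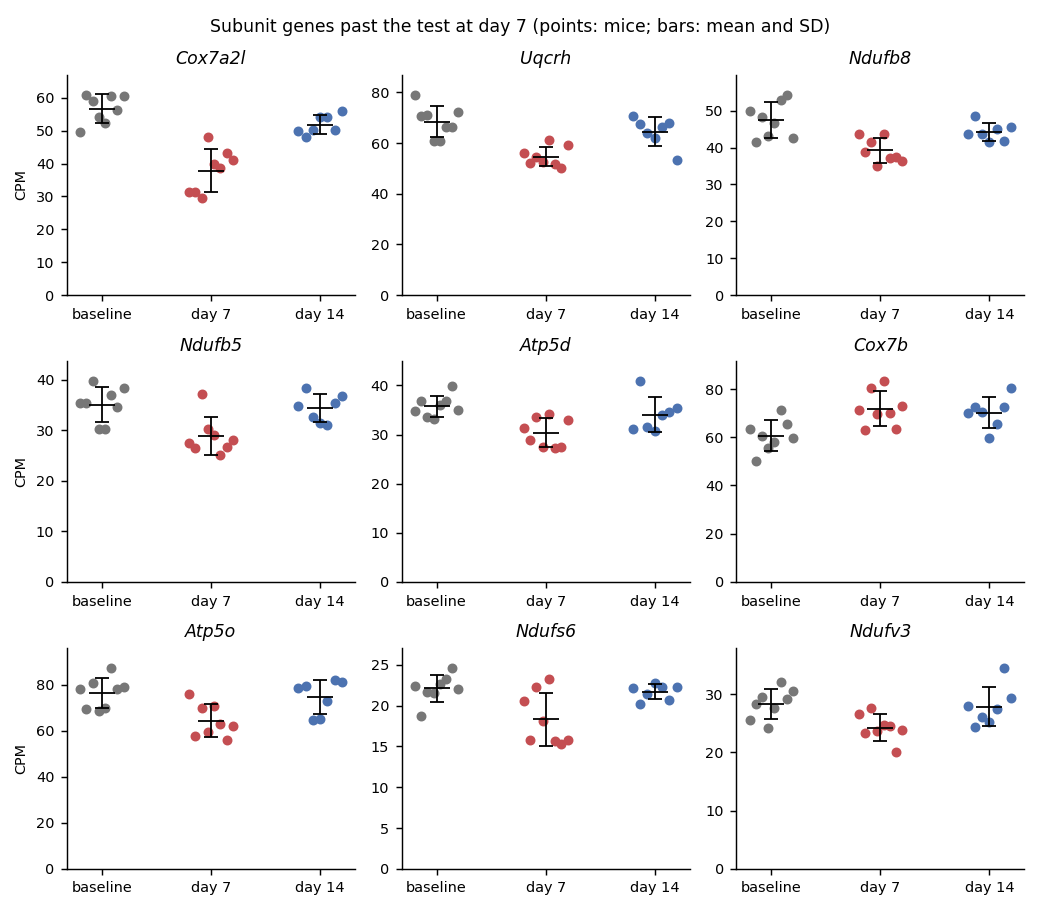
CPM per mouse of the 9 subunit genes with an adjusted p of at most 0.05 at day 7 (points: mice; bars: mean and SD; each axis starts at 0), ordered by p. The day 7 mice lie apart from the baseline mice for Cox7a2l (29.4 to 48.1 against 49.6 to 61.0 CPM) and overlap with them for the other 8 genes.

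Uqcrh, the hinge protein that helps cytochrome c bind to cytochrome c1, was the next in order of p. Its lowest, median and highest mice had 60.6, 68.6 and 79.1 CPM at baseline, 50.1, 53.4 and 61.2 at day 7, and 53.3, 66.5 and 70.7 at day 14. At day 7, 7 of 8 mice lay below every baseline mouse, and Uqcrh fell by 0.32 (SE 0.06, edgeR adjusted p = 0.000743). It was the only complex III subunit to pass. The catalytic subunits did not: Uqcrfs1, the Rieske iron-sulfur protein, had a log2 fold change of -0.05 (95% interval -0.18 to 0.09), and Cyc1 had -0.12 (-0.26 to 0.01). Uqcrb had 0.21 (0.05 to 0.36, edgeR adjusted p = 0.0536).

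In complex I, 4 of 37 tested genes (10.8%) fell, beside 9.49% of all genes, and none rose. All 4 were among the 29 tested accessory subunits, which surround the catalytic core; whether accessory and core subunits differed was not tested. Ndufb8 and Ndufb5 belong to the membrane arm. Ndufb8 had 41.6, 47.5 and 54.4 CPM in its lowest, median and highest mice at baseline and 35.0, 38.2 and 43.8 at day 7, and fell by 0.27 (SE 0.06, edgeR adjusted p = 0.00368). Ndufb5 had 30.2, 35.4 and 39.7 CPM at baseline and 25.1, 27.8 and 37.3 at day 7, and fell by 0.28 (SE 0.07, edgeR adjusted p = 0.00766). For each of the 2, 6 of 8 mice of day 7 lay below every baseline mouse. Ndufs6 and Ndufv3 belong to the module that oxidises NADH. Ndufs6 had 18.7, 22.2 and 24.6 CPM at baseline and 15.3, 17 and 23.3 at day 7, and fell by 0.27 (edgeR adjusted p = 0.0258); 5 mice of day 7 lay below every baseline mouse and the other 3 among them. Ndufv3 had 24.2, 28.7 and 32.0 CPM at baseline and 20.1, 24.1 and 27.6 at day 7, and fell by 0.22 (edgeR adjusted p = 0.0374). These were the calls that leaned most on single mice: Ndufs6 was past the threshold in 19 and Ndufv3 in 13 of the 23 fits without 1 mouse, with the highest adjusted p at 0.0674 and 0.0915, both without day 7 replicate 7. The call of Ndufs6 was also lost without baseline replicate 7 and day 7 replicates 6 and 8, and that of Ndufv3 without baseline replicates 2, 3, 6, 7 and 8 and day 7 replicates 4, 5, 6 and 8. Both calls were also lost with the GC offset and without the 20 most abundant genes. None of the 7 core subunits passed. Ndufv1, which binds NADH, had -0.02 (95% interval -0.17 to 0.12) and Ndufs1, the largest iron-sulfur subunit, 0.05 (-0.10 to 0.19). The lowest of the core subunits, Ndufs7, had -0.22 (edgeR adjusted p = 0.0726), and was called lower with a length offset and without day 7 replicate 3.

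In complex II none of 4 genes passed. Sdha, which carries the FAD and oxidises succinate, had a log2 fold change of 0.08 (95% interval -0.03 to 0.19), Sdhb 0.16 (0.03 to 0.29, edgeR adjusted p = 0.0826), and the anchors Sdhc and Sdhd 0.08 (-0.08 to 0.25) and -0.08 (-0.20 to 0.04). The absence of a call depends on the setting: Sdhb was called higher under 5 of 11 alternatives, namely the GC offset, at least 10 counts in every mouse, scaling to the subunits' own counts, and total counts with and without the 20 most abundant genes. Sdha was also called higher with both of the last.

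In complex IV, Cox7b, a small structural subunit encoded on the X chromosome, was the only subunit of the 78 past the test with a higher level. Its lowest, median and highest mice had 50.3, 60.2 and 71.3 CPM at baseline, 62.9, 70.6 and 83.2 at day 7, and 59.8, 70.5 and 80.5 at day 14. It rose by 0.25 at day 7 (SE 0.07, edgeR adjusted p = 0.0160), with 3 of 8 mice above every baseline mouse. With an offset for GC content its value was 0.13 (edgeR adjusted p = 0.199), and the genes called higher there were Cox8a, Ndufa7 and Sdhb. Of the 10 tested general forms of complex IV subunits, 8 had a positive and 2 a negative value, with a median of 0.09; the negative values were -0.11 for Cox4i1 (95% interval -0.23 to 0.00) and -0.09 for Cox6b1 (-0.25 to 0.06). Ndufa4, which has a complex I name and is now known as a complex IV subunit, had 0.21 (edgeR adjusted p = 0.0707).

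In complex V, 2 of 17 genes (11.8%) fell, beside 9.49% of all genes. Atp5d, the delta subunit of the rotating central stalk, had 33.1, 35.6 and 39.8 CPM in its lowest, median and highest mice at baseline and 27.2, 30.1 and 34.1 at day 7, and fell by 0.24 (SE 0.07, edgeR adjusted p = 0.0135). Atp5o, the subunit that holds the catalytic head on the peripheral stalk, had 68.7, 78.0 and 87.2 CPM at baseline and 56.1, 62.4 and 76.1 at day 7, and fell by 0.25 (SE 0.07, edgeR adjusted p = 0.0163). Both calls were lost with the GC offset (edgeR adjusted p = 0.134 for Atp5d and 0.0633 for Atp5o), where Atp5j was called lower, and that of Atp5d also without the 20 most abundant genes. The most abundant subunits had values near 0: Atp5a1, the alpha subunit, had -0.04 (95% interval -0.15 to 0.08) and Atp5b -0.01 (-0.13 to 0.11). Of the c ring genes, Atp5g1 and Atp5g3 had values of -0.00 and Atp5g2 of -0.19 (-0.40 to 0.03). The widest interval was that of the low Atp5s, at 0.27 (-0.11 to 0.65).

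By complex, the median log2 fold change at day 7 was -0.03 in complex I (14 of 37 positive), 0.08 in complex II (3 of 4), -0.05 in complex III (2 of 9), 0.06 in complex IV (8 of 11) and -0.02 in complex V (5 of 17), beside 0.02 over all genes. Over all genes, 6744 of 12500 values were positive. These medians and counts are descriptions.

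At day 14 against baseline, 0 of 78 subunits passed with edgeR, beside 1.49% of all genes (0.984% higher, 0.504% lower and 0.76% DEGs). Before adjustment, 10 subunits had p under 0.05, beside 1629 of the 12500 genes. DESeq2 also called 0. All 78 intervals lay within 1.5-fold. The median was 0.06, beside 0.01 over all genes. Of the 78 values 55 were positive, among them 9 of 11 in complex IV, beside 6451 of 12500 over all genes. With scaling to the subunits' own counts 41 of the 78 were positive, and with total counts all 78. By complex the medians were 0.06, 0.05, 0.03, 0.13 and 0.04 for complexes I to V. The smallest p was that of Cox7b, at 0.21 (95% interval 0.06 to 0.36, edgeR adjusted p = 0.170). The value of Cox7a2l was -0.14 (edgeR adjusted p = 0.486), and that of Uqcrb 0.22 (edgeR adjusted p = 0.173).

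At day 14 against day 7, which uses the same day 7 and day 14 mice as the comparisons above, 1 of 78 subunits passed, beside 1.22% of all genes (0.952% higher). This was Cox7a2l, which rose by 0.45 (SE 0.08, edgeR adjusted p = 0.00260), without overlap between the groups; 0.52% of all genes did not overlap. The call was lost with total counts, where the value was 0.21 (edgeR adjusted p = 0.0760), and with scaling to the subunits' own counts. The next were Uqcrh at 0.24 (edgeR adjusted p = 0.0589) and Ndufb5 at 0.26 (edgeR adjusted p = 0.0776), which DESeq2 also called. The median was 0.07, beside -0.02 over all genes, and 66 of the 78 values were positive, beside 5757 of 12500 over all genes. The count of positive values rests on the scaling. It was 41 without the 20 most abundant genes, 35 with scaling to the subunits' own counts and 5 with total counts. Because the comparisons share mice, the side-by-side values are no independent evidence of a return to baseline.

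Between the sexes, with the time point as a covariate, 0 of 78 subunits passed with edgeR, beside 0.56% of all genes. Before adjustment, 0 subunits had p under 0.05, beside 1104 of the 12500 genes. The values ran from -0.12 (Cox7a2l, female against male, edgeR adjusted p = 0.605) to 0.16. The interaction of sex with time called 0 subunits at day 7 and 0 at day 14, beside 0.00773% and 0.0% of the 12933 genes tested. Before adjustment, 2 subunits had p under 0.05 at day 7, beside 705 of those genes, and 1 at day 14, beside 473. The smallest p values were those of Cox8a at day 7 (difference 0.32, 95% interval 0.09 to 0.55, edgeR adjusted p = 0.680) and Ndufb10 at day 14 (0.29, 0.02 to 0.57, edgeR adjusted p = 1). The intervals of the interaction were wide, with a median half-width of 0.31 at day 7.

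The size of the day 7 changes rests on the scaling of the libraries. Scaling to total counts moved the median of all genes at day 7 from 0.02 to 0.48 and that of the subunits from -0.02 to 0.44. With it 75 of the 78 subunits had an adjusted p of at most 0.05 and all 75 were higher, beside 75.5% of all genes called. Of the 8 genes that fell with TMM, Cox7a2l had -0.13 with total counts (edgeR adjusted p = 0.179) and the other 7 had positive values of 0.13 to 0.23. With total counts without the 20 most abundant genes, 17 subunits were higher and 5 lower at day 7, beside 21.2% of all genes called, and 2 were called at day 14, beside 1.63%. With scaling to the subunits' own counts, 7 were higher and 9 lower at day 7, beside 15.5% of genes; 0 were called at day 14 (2.22% of genes) and 0 at day 14 against day 7 (1.1%). With only genes of at least 10 counts in every mouse, 7 were higher and 8 lower at day 7 (21.2% of genes), 0 were called at day 14 (1.82%) and 2 at day 14 against day 7 (1.93%). DESeq2 called 1 higher and 8 lower at day 7 (15.7% of genes), 0 at day 14 (1.88%) and 3 at day 14 against day 7 (2.48%). Settings that rescale whole libraries move all genes alike, so that the median of the subunits minus that of all genes was -0.04 with TMM, with DESeq2's size factors, with total counts, with total counts without the 20 most abundant genes, and when the libraries were scaled to the subunits' own counts. Settings of other kinds moved it, to -0.01 with at least 10 counts in every mouse, -0.01 with the GC offset and -0.07 with the length offset.

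**Figure D5:**
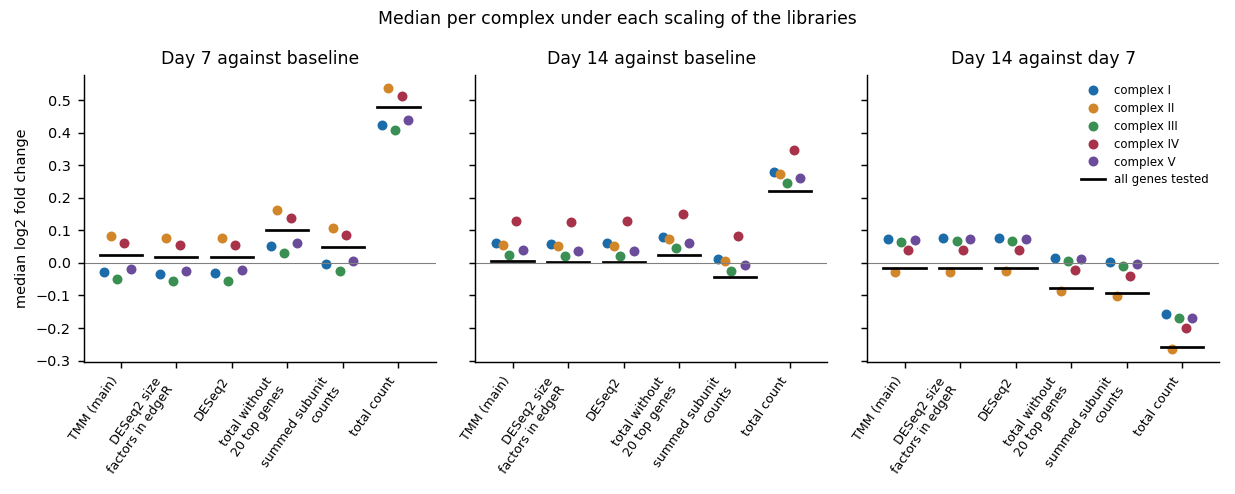
Median log2 fold change of the tested subunits of each complex (points) and of all tested genes (black lines) in the 3 comparisons, under 6 ways of scaling the libraries. With total count scaling the median of all genes at day 7 was 0.48 and that of the subunits 0.44; with TMM they were 0.02 and -0.02.

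Other genes of mitochondrial energy metabolism were described by list at day 7, where 8.5% of all genes were called higher and 9.49% lower. Of 13 tested complex I assembly factors, 0 passed (range -0.06 to 0.12). Of 32 assembly factors of complexes II to V, 1 fell, Coa3 of complex IV (-0.29, edgeR adjusted p = 0.00986). None of 14 genes for cytochrome c, the electron transfer flavoprotein and coenzyme Q synthesis passed (range -0.38 to 0.30). Of 13 genes of the citric acid cycle, 1 fell, Ogdh of the 2-oxoglutarate dehydrogenase complex (-0.19, edgeR adjusted p = 0.00613). Of 77 mitochondrial ribosomal proteins, 1 rose and 3 fell, with a median of 0.03; Mrpl33 rose by 0.46, and Mrpl53 fell by 0.31. Of 14 import and carrier genes, Slc25a4, the ADP/ATP carrier of heart and muscle, rose by 0.42, and Slc25a3, the phosphate carrier, fell by 0.25. None of 4 tested genes of the list of ATP synthase inhibitor and uncoupling proteins passed (range -0.23 to 0.39).

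Of 16 regulators of mitochondrial biogenesis and mitochondrial DNA expression, 2 (12.5%) fell at day 7, beside 9.49% of all genes. The median of the 16 was 0.04, with 9 positive and 7 negative values. Pprc1, a coactivator related to PGC-1, fell by 0.47 (SE 0.12, edgeR adjusted p = 0.00580), and Esrra, a nuclear receptor that acts on respiratory genes, fell by 0.33 (SE 0.12, edgeR adjusted p = 0.0442). Pprc1 was also lower at day 14 (-0.51, SE 0.12, edgeR adjusted p = 0.0273), and was the only gene of these mitochondrial lists past the test there. In glycolysis, 3 of 15 genes (20%) fell at day 7, beside the same 9.49%, Pfkm by 0.51, Gpi1 by 0.22 and Aldoa by 0.20, and 0 passed at day 14. The day 7 median of the 15 was 0.02, with 8 positive and 7 negative values. The cytosolic ribosomal proteins, another group of short and abundant transcripts, had 36 of 81 lower and 1 higher at day 7 with a median of -0.14. At day 14 against day 7, 25 of the 81 were higher, beside 0.952% of all genes.

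Markers of several cell types differed at day 7, where 8.5% of all genes were called higher and 9.49% lower. Of 13 acinar markers, 11 fell at day 7, and their summed level was 226343 to 349098 CPM there, beside 388614 to 574302 at baseline and 351456 to 425804 at day 14. Fibroblast and stellate markers (6 of 7 higher) summed to 599 to 1145 CPM at day 7 and 320 to 632 at baseline. Macrophage markers (7 of 8 higher) summed to 80.0 to 173 CPM beside 42.1 to 129.0, and islet markers (3 of 7 higher) to 396 to 1137 CPM beside 127 to 547. Ductal markers (2 of 6 higher) summed to 106 to 185 CPM beside 74.0 to 119, and endothelial markers (2 of 6 lower) to 61.2 to 108 CPM beside 74.3 to 123. Both lists were mixed in direction: 3 ductal values were positive and 3 negative, and 2 endothelial values were positive and 4 negative. None of the tested lymphocyte, adipocyte or smooth muscle markers passed; the highest lymphocyte and adipocyte sums at day 7, 104 and 211 CPM, were both those of day 7 replicate 2, beside at most 59.6 and 97.9 CPM at baseline. Erythroid markers (4 of 5 higher) summed to 24.2 to 670 CPM at day 7, with day 7 replicate 7 at the top, and to 27.8 to 48.6 at baseline. Without day 7 replicate 7, 8 subunits had an adjusted p of at most 0.05 at day 7, of which 7 were among the 9 (Ndufs6 and Ndufv3 were not, and Uqcrb was higher). Without day 7 replicate 2, the 9 and Sdhb, which was higher, were past the threshold. At day 14 against baseline, 6 of 13 acinar markers were lower, beside 0.504% of all genes. There, 2 of 7 fibroblast and stellate markers were higher, beside 0.984% of all genes, and no marker of the other tested lists passed. The part of these marker shifts in the changes of the subunits was not tested.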

How the data were processed

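RNA-seq was performed on the pancreatic head of 23 mice. The authors depleted ribosomal RNA, sequenced stranded paired reads, trimmed them with Trim Galore and cutadapt, aligned them to mm10 with STAR 2.5.2a and counted unique fragments with featureCounts; the annotation and the strand setting are not given in the sources used here. The deposited values are whole counts per gene symbol, with 1 column per mouse. Another mouse of day 14 was not analysed here.

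The members, gene lists and tests were chosen with earlier results of these data known. Groups come from the labels, which give each mouse its own number. Counts were scaled with TMM and tested in R 4.3.3 with edgeR 4.0.16 and limma 3.58.1 (filterByExpr, estimateDisp, robust glmQLFit, glmQLFTest) in 1 fit of time and sex over all 23 mice; a second fit with 6 groups of sex and time gave the interaction. Two-sided p-values received a Benjamini-Hochberg adjustment across the genes tested. The SE was back-calculated from the log2 fold change and F, so it restates the test. Intervals are 95%. Between 2 libraries of a group, counts differed by 4.33 to 37.2 times the sampling variance, so no library was a copy of another.

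Symbols were matched to GENCODE vM21 (18296 of 18512; all 85 members). Lengths are those of the shortest APPRIS principal coding transcript. Promoter windows are from RefSeq. Named members are those with the smallest p past the threshold (20 at day 7, 10 elsewhere, or the first where none passed), subunits fixed by role, those highest and lowest in level per kilobase and largest in change per complex, and those with too few counts; other values were named after they were seen. The edgeR test of day 7 against baseline was checked on simulated counts with known fold changes. The other comparisons, the interaction and DESeq2 were not checked in this way. The alternatives were DESeq2 1.42.0, 4 other scalings (that to the members' own counts was added after seeing the data), 2 filters, only the mice compared, no covariate, a GC or length offset, leaving out each mouse, and a fold threshold. Tables and plots were made in Python 3.11.15 (matplotlib 3.10.9, scipy 1.17.1, pandas 2.3.3, numpy 2.4.6).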

Additional observations from a re-analysis of the deposited data

Results flagged for a closer look

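Within each group, the highest and lowest mouse of every named subunit and of the summed level of each complex were compared with Dixon's 95% critical values in 135 groups of values, of which chance marks about 1 in 20. There were 2 such values. Ndufs6 was low in baseline replicate 2, at 4.24 on the log2 CPM scale, beside a group median of 4.49; without the mouse the decrease at day 7 was still past the threshold. Cox5a was low in day 14 replicate 4, at 4.79 beside a median of 5.12. No subunit passed the test of an interaction between sex and time.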

How the results depend on the processing

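No paired analysis was possible because each mouse belongs to 1 time point and its number only names it. The counts and medians rest on the scaling of the libraries. With total count scaling the number of subunits with an adjusted p of at most 0.05 was 75 at day 7, beside 75.5% of all genes. It was 58 at day 14, beside 24.1%, and 35 at day 14 against day 7, beside 32.5%. The median log2 fold changes of the subunits were 0.44, 0.27 and -0.17, beside 0.48, 0.22 and -0.26 over all genes. With total counts without the 20 most abundant genes the numbers were 22 at day 7 and 2 at day 14, with at least 10 counts in every mouse 15 at day 7 and 2 at day 14 against day 7, with scaling to the subunits 16 and 0, with a 1.5-fold threshold 1 and 0, and with DESeq2 3 at day 14 against day 7. Leaving out each mouse gave 7 to 14 at day 7 (14 without baseline replicate 6, with 7 higher and 7 lower), 0 at day 14 and 1 to 2 at day 14 against day 7 (2 without baseline replicates 1, 4 or 5, day 7 replicates 3, 5 or 8 or day 14 replicate 7), and medians of -0.04 to 0.00, 0.03 to 0.08 and 0.05 to 0.10. Some values of named subunits past the threshold under neither the reported setting nor the alternative changed sign, with total counts and with other alternatives. Among values of named subunits past the threshold with the reported setting or with the alternative, the sign reversed for 40, all with total count scaling. At day 7 these were Atp5a1 (0.42), Atp5b (0.45), Atp5d (0.21), Atp5g1 (0.45), Atp5g2 (0.26), Atp5g3 (0.45), Atp5l (0.41), Atp5o (0.21), Atp5sl (0.40), Cox4i1 (0.34), Cox6b1 (0.37), Cyc1 (0.33), Ndufb5 (0.17), Ndufb8 (0.19), Ndufb9 (0.38), Ndufs6 (0.18), Ndufv1 (0.42), Ndufv3 (0.23), Sdhd (0.38), Uqcrc1 (0.39), Uqcrfs1 (0.41), Uqcrh (0.13). At day 14 these were Atp5o (0.19), Cox4i1 (0.21), Ndufb5 (0.20), Sdhd (0.21), Uqcrc1 (0.17). At day 14 against day 7 these were Atp5a1 (-0.19), Atp5b (-0.18), Atp5e (-0.19), Cox4i1 (-0.13), Cox5a (-0.20), Cox6a1 (-0.15), Cyc1 (-0.18), Ndufb10 (-0.21), Ndufs1 (-0.22), Sdhd (-0.17), Uqcrb (-0.22), Uqcrc1 (-0.22), Uqcrfs1 (-0.17). Calls were lost with the GC offset for Atp5d, Atp5o, Cox7b, Ndufs6 and Ndufv3, and without the 20 most abundant genes for Atp5d, Ndufs6 and Ndufv3. That of Ndufv3 was also lost with no filter, that of Ndufs6 with only the mice compared, that of Cox7a2l at day 7 with total counts, and that of Cox7a2l at day 14 against day 7 with total counts and with scaling to the subunits; the cause was not tested. Depth limits the 7 untested members. The interaction rests on 3 or 4 mice per sex and time point.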
